A study of Mus musculus with 12 samples.

Results

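Hedgehog signalling was described here through 9 genes that carry the signal from the cell surface to DNA in the receiving cell: the receptor Ptch1, the co-receptors Boc, Cdon and Gas1, the transducer Smo, the inhibitor Sufu and the transcription factors Gli1, Gli2 and Gli3. The members were chosen by name, as the table entries with these symbols, and all 9 were found among 21493 genes in each of 12 libraries. All 9 passed the filter on low counts that left 13158 genes for testing. Their lowest count in any library was 18 reads, for Gli3 in a Des-/- swim library.

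The libraries held poly-A RNA of cardiomyocytes, the contractile cells of the heart, which were freed from the hearts of 3-month-old mice by perfusion with trypsin and collagenase D. Des-/- mice lack desmin, the intermediate filament protein that links the contractile apparatus of muscle cells to other cell structures. Wild-type Des+/+ mice on the 129SV background were the controls, and each genotype was studied with and without a programme of swimming, which gave the groups Des+/+ non-swim, Des+/+ swim, Des-/- non-swim and Des-/- swim with 3 libraries each. The cells of several mice, used regardless of sex, were pooled into each library, so a replicate is a pool. The methods give the names Des+/+ and Des-/- to mice that also carry, on both copies, a green fluorescent protein transgene driven by the cardiomyocyte promoter αMHC, and the labels of these libraries do not mention the transgene. Total reads in genes ranged from 4320819 to 12072443 per library. Of the reads in genes, in no gene or in more than 1 gene, the share in no gene moved with the groups and was 34.0% to 39.3% in Des+/+ non-swim, 45.9% to 50.4% in Des+/+ swim and 57.2% to 64.5% in Des-/- swim libraries. In Des-/- non-swim libraries it was 52.3%, 49.0% and 34.2%, with replicate 3 the lowest. Its part in the results was not tested. Des itself was lower in Des-/- libraries by a log2 change of -5.31 (SE 0.37) without swimming and -3.72 (SE 0.35) after it, in all libraries of both contrasts (edgeR quasi-likelihood test, adjusted p = 1.57e-04 and 0.00323).

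In vertebrates a Hedgehog ligand binds Ptch1 together with Boc, Cdon or Gas1, which ends the block that Ptch1 places on Smo. Smo then acts in the primary cilium to release Gli2 and Gli3 from Sufu, Gli2 serving mostly as an activator and Gli3 mostly as a repressor of transcription. Gli1 and Ptch1 are themselves transcribed in response to the pathway and are commonly read as its output, and in adult organs Gli1 also marks perivascular stromal cells that resemble fibroblasts.

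The 9 genes lie on several chromosomes of the mouse build GRCm38, and all are annotated as protein-coding. Ptch1 (ENSMUSG00000021466) spans chr13:63508328-63573598 on the minus strand, and Gas1 (ENSMUSG00000052957) and Gli3 (ENSMUSG00000021318) lie on the same chromosome at chr13:60174405-60177365 and chr13:15463235-15730026. Smo (ENSMUSG00000001761) lies at chr6:29735503-29761365, Gli1 (ENSMUSG00000025407) at chr10:127329882-127341974 and Gli2 (ENSMUSG00000048402) at chr1:118834132-119053619. Sufu (ENSMUSG00000025231), Boc (ENSMUSG00000022687) and Cdon (ENSMUSG00000038119) lie at chr19:46396896-46488804, chr16:44485049-44558897 and chr9:35421128-35507652. Gli1 shares 62 exon bases with Arhgap9 on the opposite strand and 265 with the antisense gene Gm47200. Gli3 and Gas1 overlap antisense genes that are not counted in the tables by 188 and 589 exon bases. The labels name a library kit that does not keep strand and the methods name one that does, so reads of Gli1 and of its antisense neighbours may not be told apart.

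The promoters of 3 members are shown because their RNA levels moved differently. Ptch1 did not pass the test in any comparison. Gli2 was called higher in Des-/- cells without swimming, with Des-/- libraries close together. Gas1 was called higher in the same contrast, while its genotype change among mice that had swum was near 0 (log2 change -0.14). The 250 bases before the RefSeq start of each gene (GRCm38.p6) are written 5′ to 3′ along the gene's strand, with each GC box (GGGCGG, or CCGCCC on the opposite strand) in capitals. The windows of Ptch1 and Cdon lie inside the gene spans given above, at internal starts (31 bases of the Cdon window fall in exons of Cdon). The windows are chr13:63565736-63565985 on the minus strand for Ptch1, chr1:119053620-119053869 on the minus strand for Gli2 and chr13:60177536-60177785 on the minus strand for Gas1.
Ptch1: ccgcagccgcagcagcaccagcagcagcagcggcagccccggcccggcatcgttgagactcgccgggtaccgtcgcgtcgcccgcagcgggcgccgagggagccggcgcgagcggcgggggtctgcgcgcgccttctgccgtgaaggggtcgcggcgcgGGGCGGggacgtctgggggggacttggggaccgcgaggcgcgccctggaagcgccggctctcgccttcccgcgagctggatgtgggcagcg
Gli2: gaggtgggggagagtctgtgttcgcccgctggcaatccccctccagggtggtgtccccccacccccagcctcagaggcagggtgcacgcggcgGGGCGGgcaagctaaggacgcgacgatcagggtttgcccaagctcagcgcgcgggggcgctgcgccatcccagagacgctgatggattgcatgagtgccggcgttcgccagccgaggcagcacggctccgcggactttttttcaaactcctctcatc
Gas1: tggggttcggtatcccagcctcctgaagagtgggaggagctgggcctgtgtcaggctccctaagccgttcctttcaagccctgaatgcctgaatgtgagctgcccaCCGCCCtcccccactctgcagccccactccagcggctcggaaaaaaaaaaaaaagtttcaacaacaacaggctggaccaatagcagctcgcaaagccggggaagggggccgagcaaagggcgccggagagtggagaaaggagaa
Of the 9 members, 7 had such a window, and Gli1 and Boc were not analysed here. A GC box stood in 5 of these 7 windows (71.4%), against 32.7% of the 32851 windows in the table. The Gli-binding letters GACCACCCA were found on neither strand of the 7 windows, and 0.225% of all windows held them. The shorter core CCACCCA, which is part of the same letters, was also in 0 of 7 windows and in 8.11% of all windows. The absence of these letters concerns these windows only.

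Among the 9 genes, Gas1 and Smo stood highest and the Gli genes lowest on a per-length scale (TPM, counts per exon length scaled to a common total, which allows levels of different genes to be compared). In Des+/+ non-swim libraries Gas1 reached 23.9 ± 1.12 TPM (SD, n = 3) and Smo 21.9 ± 1.45 TPM, and the libraries of this pair overlapped. Boc followed at 14.9 ± 2.80 TPM, Sufu at 12.1 ± 1.27 TPM and Ptch1 at 11.0 ± 0.923 TPM, each overlapping with the next. Cdon was below them at 7.96 ± 1.42 TPM with no overlap. Gli1 was at 2.67 ± 0.463 TPM, and Gli2 (1.95 ± 0.170 TPM) and Gli3 (1.83 ± 0.560 TPM) overlapped. In Des-/- non-swim libraries Gas1 (66.2 ± 17.4 TPM), Smo (45.7 ± 4.34 TPM) and Boc (29.1 ± 4.57 TPM) led without overlapping one another, and Gli1 (10.5 ± 4.22 TPM) overlapped with Ptch1 (12.1 ± 3.58 TPM). After swimming the first place in Des-/- libraries was held by Smo (31.3 ± 3.61 TPM), whose libraries overlapped with those of Gas1 (27.1 ± 6.83 TPM).

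**Figure D1:**
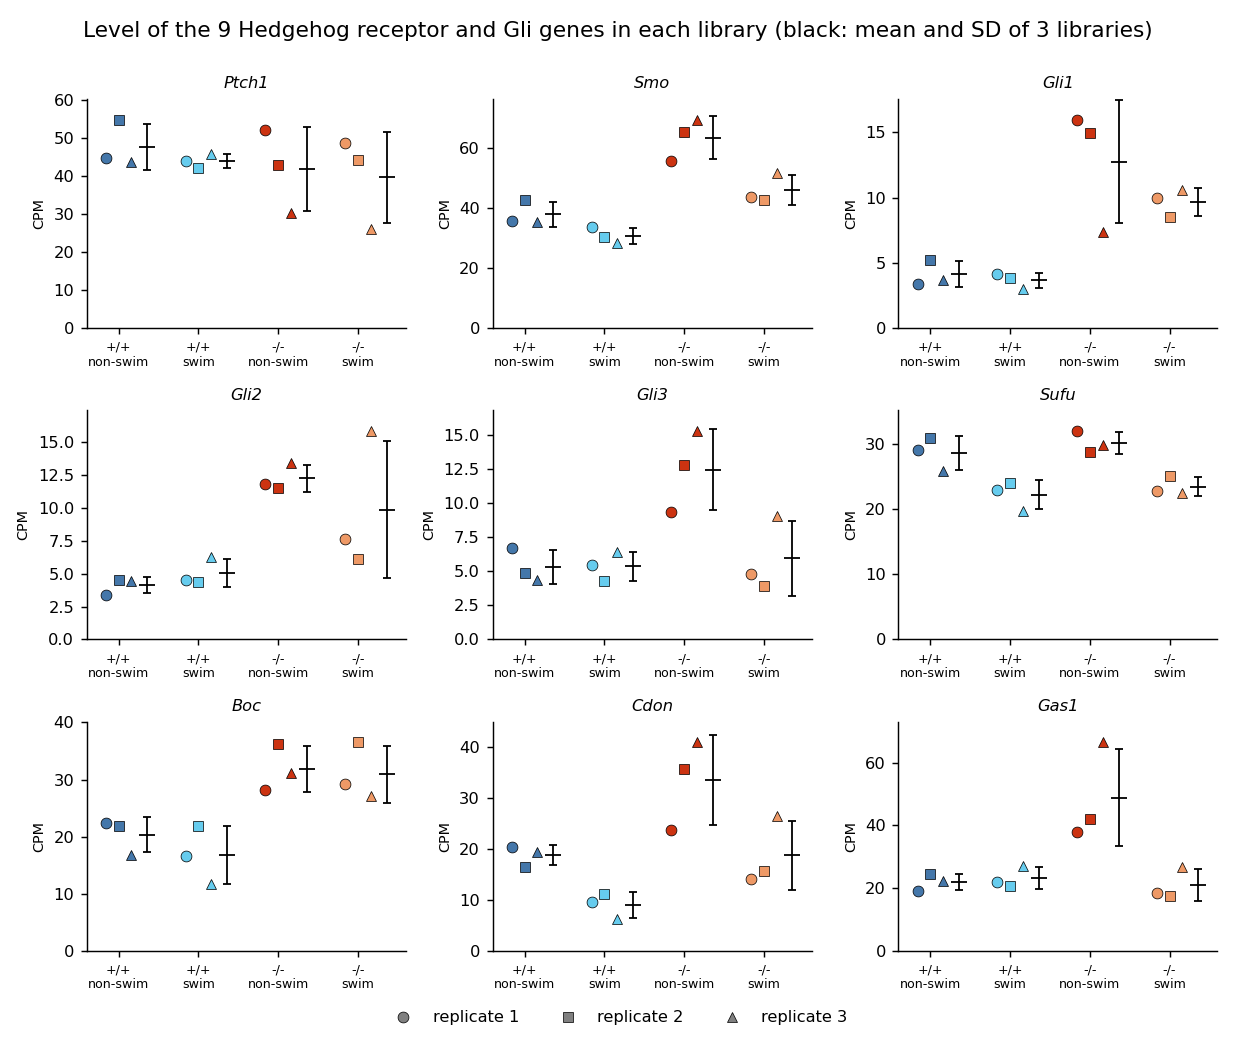
Level of each of the 9 genes in CPM (reads per gene scaled by the TMM-adjusted library total, y axis from 0) in every library of the 4 groups (x axis), with the symbol giving the replicate number and black bars the mean and SD of 3 libraries. Gli1 lies between 2.99 and 5.26 CPM in all 6 Des+/+ libraries and between 7.35 and 15.9 CPM in all 6 Des-/- libraries, while Ptch1 overlaps between the genotypes.

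The first comparison asked how the 9 genes differed between Des-/- and Des+/+ cells without swimming. The transducer, all 3 Gli genes and all 3 co-receptors were higher in Des-/- cells, 7 of 9 members in all, while the receptor Ptch1 and the inhibitor Sufu did not pass the test. Over all 13158 genes, 14% were called higher and 18% lower in this contrast (32% in all), and the libraries of the higher group lay wholly above the others for 23%. The median log2 change of the members was 0.84, against 0.04 for all genes tested. All 7 called members had Des-/- libraries that lay wholly above the Des+/+ libraries. Unless DESeq2 or another fit is named, each adjusted p for genotype and swimming comes from edgeR's quasi-likelihood test with Benjamini-Hochberg adjustment over 13158 genes. Fits on fewer libraries were filtered anew, and DESeq2 adjusted over its own set of genes.

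Gli1, the factor that the pathway itself induces, stood at 3.42, 5.26 and 3.70 CPM in the Des+/+ non-swim libraries and at 15.9, 14.9 and 7.35 CPM in the Des-/- non-swim libraries. All 3 Des-/- libraries were above all 3 controls, and replicate 3 was the lowest of them. The log2 change was 1.62 (SE 0.32, adjusted p = 0.00355), the largest among the members. Gli2, the main activator, moved from 3.42, 4.56 and 4.42 CPM to 11.8, 11.6 and 13.5 CPM. Its Des-/- libraries lay close together, and the log2 change was 1.57 (SE 0.34, adjusted p = 0.00568). Gli3, the main repressor, stood at 6.72, 4.91 and 4.33 CPM in Des+/+ and at 9.35, 12.8 and 15.3 CPM in Des-/- libraries, with replicate 3 the highest. Its log2 change was 1.23 (SE 0.34, adjusted p = 0.0177), so that genes for an activator and for a repressor of the same targets were both higher.

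Smo, the membrane protein that passes the signal on, had the smallest standard error of the called members. It stood at 35.6, 42.7 and 35.4 CPM in Des+/+ and at 55.5, 65.3 and 69.2 CPM in Des-/- libraries, and the groups did not overlap. Its log2 change was 0.74 (SE 0.14, adjusted p = 0.00257). Ptch1, the receptor that holds Smo back, stood at 44.9, 54.8 and 43.8 CPM in Des+/+ and at 52.3, 42.9 and 30.4 CPM in Des-/- libraries. The groups overlapped, with the lowest value in replicate 3 of the Des-/- group. Its log2 change was -0.19 with a 95% interval from -0.70 to 0.32 (adjusted p = 0.558), an interval that holds neither a rise of the size seen for Smo nor one of the size seen for Gli1. Sufu, which binds Gli proteins in the cytoplasm, was at 29.1, 31.0 and 25.8 CPM in Des+/+ and at 32.0, 28.8 and 29.8 CPM in Des-/- libraries. The groups overlapped and the change was 0.08 with a 95% interval from -0.21 to 0.36 (adjusted p = 0.678).

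The co-receptors differed among themselves in how firmly they were called. Gas1, a membrane-anchored protein that hands the ligand to Ptch1, rose from 19.1, 24.3 and 22.1 CPM to 37.9, 41.9 and 66.5 CPM. Replicate 3 of the Des-/- group was the highest, and the log2 change was 1.16 (SE 0.24, adjusted p = 0.00417). Cdon, an immunoglobulin-domain protein of the cell surface, was at 20.4, 16.5 and 19.3 CPM in Des+/+ and at 23.7, 35.7 and 40.8 CPM in Des-/- libraries, a log2 change of 0.84 (SE 0.29, adjusted p = 0.0432). Boc, its close relative, was at 22.4, 21.9 and 16.8 CPM and at 28.2, 36.2 and 31.2 CPM, a log2 change of 0.65 (SE 0.22, adjusted p = 0.0430).

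Each of the 12 libraries was left out in turn to see what the calls rest on. Smo, Gli1, Gli2 and Gas1 stayed called in 12 of 12 such fits. Gli3 was called in 9, and it was lost without Des+/+ non-swim replicate 2, Des+/+ non-swim replicate 3 or Des-/- non-swim replicate 3, where the number of called members fell to 4. Cdon was called in 5 of 12 fits, namely those without Des+/+ swim replicate 2 or 3, Des-/- non-swim replicate 1 or Des-/- swim replicate 1 or 3. Boc was called in 4 of 12, those without Des+/+ swim replicate 2 or 3 or Des-/- swim replicate 2 or 3. The highest adjusted p over the 12 fits was 0.0711 for Gli3, 0.135 for Cdon and 0.151 for Boc.

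**Figure D2:**
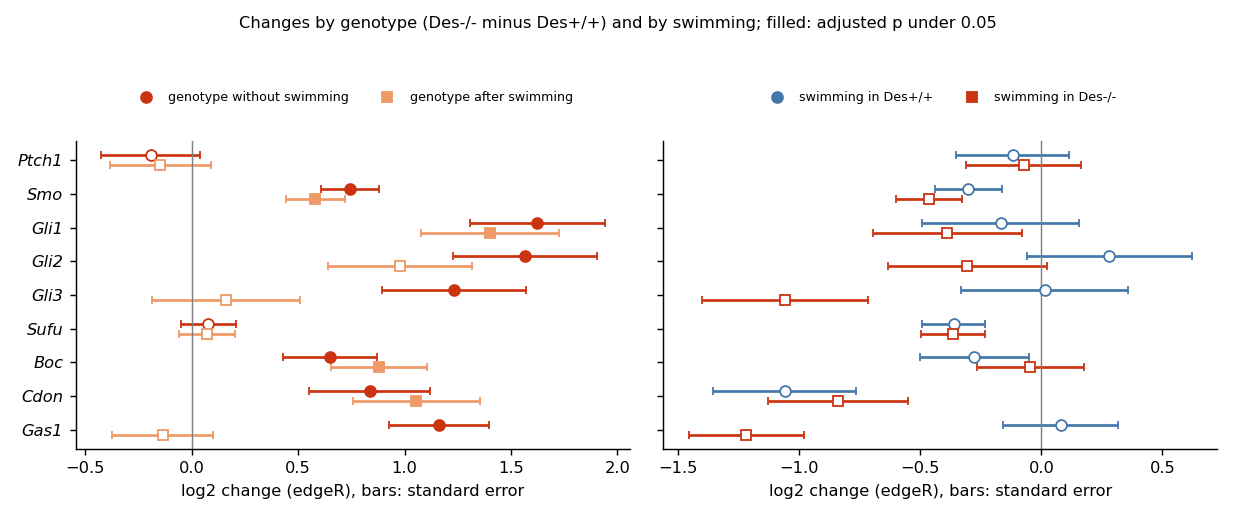
Log2 change of each gene in the genotype comparisons (left, Des-/- minus Des+/+) and the swimming comparisons (right, swim minus non-swim), with bars for the standard error and filled symbols for an adjusted p under 0.05. In the genotype panel 7 genes are filled without swimming and 4 after it, and in the swimming panel 0 are filled.

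The second comparison asked the same of mice that had swum. Here 4 of 9 members were higher in Des-/- cells, Smo, Gli1, Boc and Cdon, and the other 5 did not pass the test. In this contrast 5.01% of all genes were called higher and 5.57% lower (10.6% in all), and 17.3% had Des-/- libraries wholly above the others. The median change of the members was 0.58, against 0.02 for all genes. DESeq2 called Gli2 as well, 5 of 9 members against 16.4% of all genes, and it called the same 7 members as edgeR without swimming, against 34.7% of all genes.

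Gli1 again had the largest change. It stood at 4.13, 3.85 and 2.99 CPM in Des+/+ swim and at 9.95, 8.53 and 10.6 CPM in Des-/- swim libraries, with no overlap and a log2 change of 1.40 (SE 0.32, adjusted p = 0.0238). Smo was at 33.5, 30.4 and 28.2 CPM in Des+/+ and at 43.5, 42.6 and 51.6 CPM in Des-/- libraries, a change of 0.58 (SE 0.14, adjusted p = 0.0267). Boc was at 16.7, 21.8 and 11.7 CPM in Des+/+ and at 29.2, 36.5 and 27.1 CPM in Des-/- libraries. The groups did not overlap, and the log2 change was 0.88 (SE 0.23, adjusted p = 0.0331). Cdon was at 9.57, 11.1 and 6.12 CPM in Des+/+ and at 14.1, 15.5 and 26.3 CPM in Des-/- libraries. Its change was 1.06 (SE 0.30, adjusted p = 0.0450), again without overlap.

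Gli2 was at 4.49, 4.39 and 6.26 CPM in Des+/+ swim and at 7.68, 6.12 and 15.9 CPM in Des-/- swim libraries. Replicate 2 of the Des-/- group lay within the Des+/+ range, and the change of 0.98 (SE 0.34) did not pass (adjusted p = 0.0816). Gli3 was at 5.43, 4.28 and 6.40 CPM and at 4.83, 3.94 and 9.08 CPM, a change of 0.16 with a 95% interval from -0.60 to 0.92. Gas1 was at 21.7, 20.5 and 27.0 CPM and at 18.5, 17.5 and 26.8 CPM, a change of -0.14 with an interval from -0.66 to 0.39. For both genes the groups overlapped. Ptch1 (43.9, 42.3 and 46.0 CPM against 48.8, 44.4 and 26.2 CPM) and Sufu (22.9, 24.1 and 19.8 CPM against 22.8, 25.1 and 22.5 CPM) overlapped as well, with changes of -0.15 and 0.07.

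These calls leaned on single libraries more than those without swimming. No member was called without Des+/+ swim replicate 3, Des-/- swim replicate 1 or Des-/- swim replicate 3. Smo alone was called without Des+/+ swim replicate 1, Boc alone without Des+/+ swim replicate 2, and Smo and Gli1 without Des-/- swim replicate 2. Leaving out a library of the mice that had not swum kept Smo, Gli1 and Boc called each time, while Cdon was called in 2 of these 6 fits, those without Des-/- non-swim replicate 1 or 3.

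Swimming itself was compared within each genotype. In Des+/+ cells 0 of 9 members were called by edgeR (0.0912% of all genes were called), and 3 had an unadjusted p under 0.05, as did 20.5% of all genes. In Des-/- cells 0 of 9 were called (0.0228% of all genes) and 5 had an unadjusted p under 0.05, as did 16.7% of all genes. DESeq2 called 1 member in each genotype, Cdon in Des+/+ (log2 change -1.04, adjusted p = 0.0269, with 7.09% of all genes called) and Gas1 in Des-/- (log2 change -1.21, adjusted p = 0.00217, with 2.66% called). By edgeR these changes were -1.06 for Cdon (SE 0.30, adjusted p = 0.111) and -1.22 for Gas1 (SE 0.24, adjusted p = 0.164).

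Cdon, Gas1 and Gli3 had the largest differences. Cdon was at 11.1 CPM or below in all Des+/+ swim libraries and at 16.5 CPM or above in all Des+/+ non-swim libraries. Gas1 in Des-/- cells was at 26.8 CPM or below after swimming and at 37.9 CPM or above without it. Gli3 in Des-/- cells was also lower with no overlap, by a log2 change of -1.06 (SE 0.34, adjusted p = 0.203). Cdon in Des-/- cells was at 23.7, 35.7 and 40.8 CPM without swimming and at 14.1, 15.5 and 26.3 CPM after it, lower in all 3 same-numbered pairs although the groups overlapped, with a change of -0.84 (SE 0.29, adjusted p = 0.217). No source states that the replicate numbers pair the Des-/- libraries. A fit with the numbers as a block also called 0 of 9 members for swimming in Des-/- cells. In that fit Gas1 was at -1.20 (adjusted p = 0.0718), Gli3 at -1.10 (adjusted p = 0.20) and Cdon at -0.84 (adjusted p = 0.220). Smo (-0.30 and -0.46) and Sufu (-0.36 and -0.37) had swim libraries wholly below the non-swim libraries in both genotypes, with adjusted p between 0.164 and 0.243. Wholly lower libraries were found for 18.7% of all genes in Des+/+ and 9% in Des-/- cells.

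Whether the effect of swimming differed between genotypes was tested as an interaction. By edgeR 0 of 9 members and 0 of 13158 genes were called (0%), with 2 members, Gli3 and Gas1, at an unadjusted p under 0.05, as were 16.3% of all genes. The interaction was -1.30 for Gas1 (SE 0.33, adjusted p = 0.199) and -1.07 for Gli3 (SE 0.48, adjusted p = 0.304). DESeq2 called 1 member, Gas1, with an interaction of -1.31 (adjusted p = 0.0301, with 3.96% of all genes called), and gave no adjusted p for Gli3. A call of Gli2, Gli3 or Gas1 without swimming and not after it is therefore, by the edgeR test, not shown to be a difference between these conditions.

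Some proportions between members differed between the genotypes and others overlapped, and they are given as a description with no test, since Gli1 and Ptch1 were singled out after the values were seen. Gli1 TPM was 24.3 ± 2.83% of Ptch1 TPM in Des+/+ non-swim (SD, n = 3) and 23.7 ± 4.54% in Des+/+ swim libraries. In Des-/- libraries it was 84.7 ± 15.2% and 75.9 ± 34.1%. The range was 18.5% to 27.2% over the 6 Des+/+ libraries and 54.6% to 115% over the 6 Des-/- libraries. Ptch1 TPM was 50.0 ± 0.945% of Smo TPM in Des+/+ and 26.9 ± 10.0% in Des-/- libraries without swimming, and 57.2 ± 6.63% and 35.3 ± 13.2% after it. Gli1 TPM was 137 ± 21.8% of Gli2 TPM in Des+/+ and 146 ± 61.8% in Des-/- libraries without swimming, and 104 ± 33.7% and 154 ± 54.0% after it, with overlapping ranges both times. Gli2 TPM was 114 ± 38.1% of Gli3 TPM in Des+/+ and 142 ± 29.9% in Des-/- libraries without swimming, which overlapped. After swimming it was 132 ± 14.5% and 228 ± 14.2%, which did not.

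Markers of cells other than cardiomyocytes differed between the same groups. The summed level of 14 fibroblast markers was 6690 to 8005 CPM in Des+/+ non-swim, 5837 to 7032 CPM in Des+/+ swim, 13697 to 41009 CPM in Des-/- non-swim and 9405 to 16063 CPM in Des-/- swim libraries. Of these markers 13 of 14 were called higher in Des-/- cells without swimming and 5 of 14 after it. Over all genes, 14% were called higher and 18% lower without swimming, and 5.01% and 5.57% after it. The summed level of 12 cardiomyocyte markers was 63941 to 99538, 31495 to 54500, 6210 to 30164 and 15607 to 27279 CPM in the same order of groups, with 12 of 12 called lower without swimming and 1 of 12 after it. Macrophage markers were called higher for 8 of 10 genes without swimming and 0 of 10 after it, and immediate early and heat shock genes that respond to cell isolation for 12 and 8 of 14. The mural and glial lists had 0 called genes in either genotype comparison, and the endothelial list had 0 and 1 of 10. The epicardial list also had 0 of 7 called, but all 7 of its genes had positive changes in both comparisons, with medians of 1.91 and 2.16. Its summed level was 29.2 to 64.5, 5.83 to 42.5, 22.2 to 310.1 and 41.7 to 319.3 CPM in the same order of groups. The summed macrophage markers were at 225 to 342, 255 to 323, 419 to 4273 and 229 to 1379 CPM. None of the marker genes was at or below 3 counts in every library. In bulk RNA, a change in the number of cells of a type and a change in RNA per cell cannot be told apart, and the part of these markers in the members' differences was not tested beyond the values that follow.

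**Figure D3:**
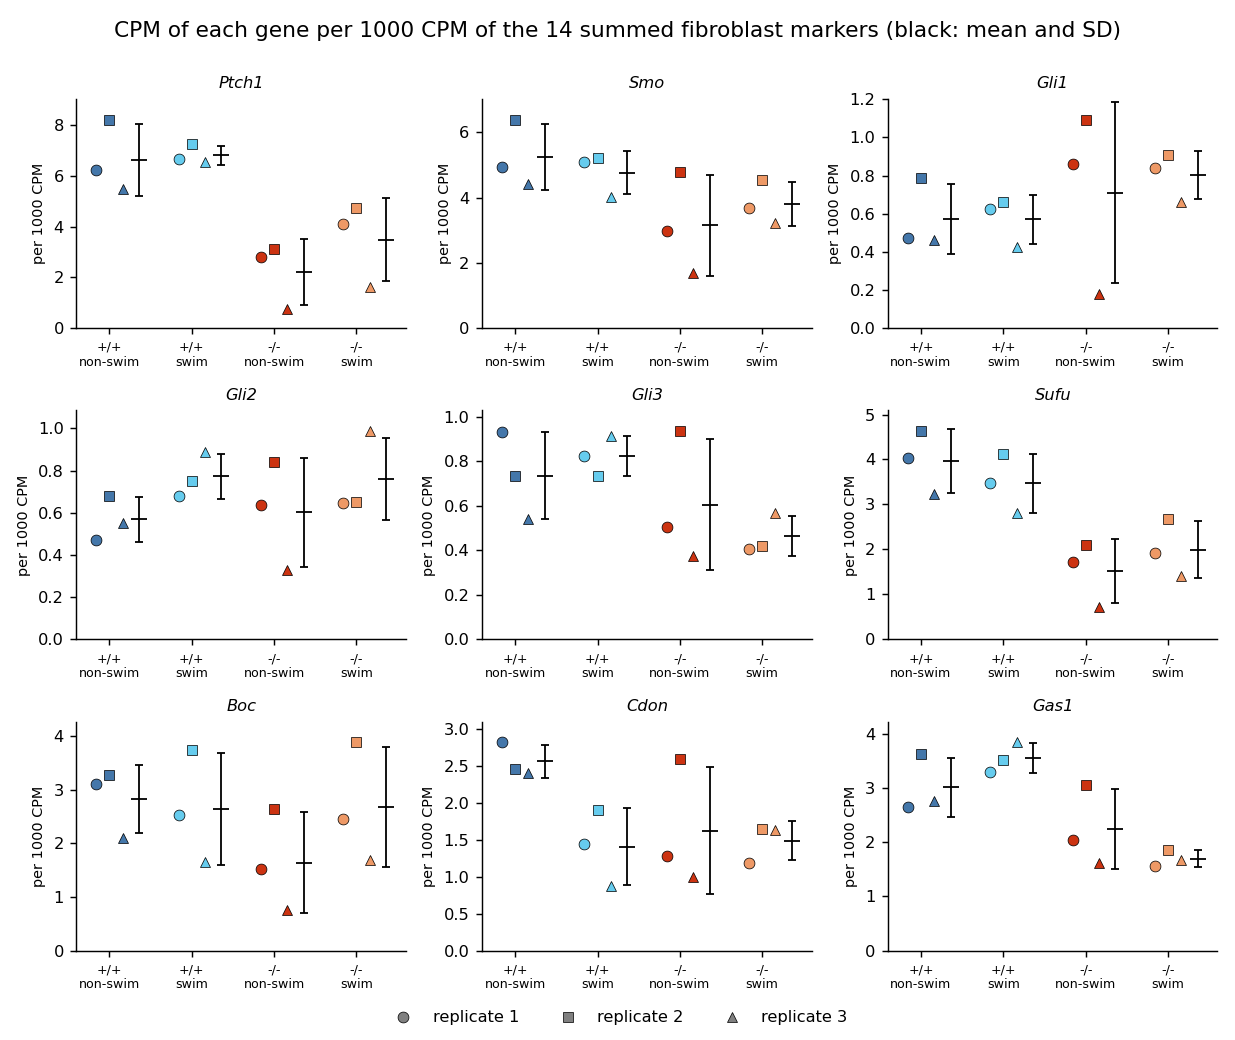
CPM of each of the 9 genes per 1000 CPM of the 14 summed fibroblast markers (y axis from 0) in every library of the 4 groups, with black bars for the mean and SD of 3 libraries. Ptch1 and Sufu fall without overlap from Des+/+ to Des-/- groups on this scale, and Gli1 spans 0.179 to 1.09 in Des-/- non-swim libraries.

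The members' levels were also set against the fibroblast markers. The sum weights each marker by its level, so it does not count fibroblasts. Without swimming, mean Col3a1 was 920 CPM in Des+/+ and 7076 CPM in Des-/- libraries, and mean Pdgfra was 91.1 and 165 CPM. Gli1 was at 0.574 ± 0.184 CPM per 1000 CPM of fibroblast markers in Des+/+ non-swim and 0.710 ± 0.474 in Des-/- non-swim libraries, and at 0.571 ± 0.127 and 0.803 ± 0.127 after swimming. Without swimming the groups overlapped on this scale, and after it the lowest Des-/- library (0.661) was just above the highest Des+/+ library (0.660). Gli2 was at 0.569 ± 0.105 and 0.603 ± 0.259 without swimming and at 0.774 ± 0.107 and 0.762 ± 0.195 after it. Ptch1 went from 6.63 ± 1.41 to 2.23 ± 1.30 and from 6.81 ± 0.376 to 3.49 ± 1.64. Several members that were called higher in CPM had lower means in Des-/- libraries on this scale. Smo was at 5.24 ± 1.02 and 3.15 ± 1.55 without swimming and at 4.77 ± 0.660 and 3.80 ± 0.672 after it, and Boc was at 2.82 ± 0.633 and 1.64 ± 0.948 without swimming, all with overlap. Cdon was at 2.57 ± 0.225 and 1.63 ± 0.859 without swimming, also with overlap. Gas1 (3.01 ± 0.540 and 2.24 ± 0.739) and Gli3 (0.735 ± 0.195 and 0.604 ± 0.293) overlapped as well without swimming. The means of Boc (2.64 ± 1.04 and 2.68 ± 1.11) and Cdon (1.41 ± 0.519 and 1.49 ± 0.264) after swimming were not lower in Des-/- libraries. After swimming Gas1 was at 3.55 ± 0.276 and 1.70 ± 0.153 and Gli3 at 0.823 ± 0.0887 and 0.464 ± 0.0881, both without overlap. Sufu was at 3.96 ± 0.705 and 1.52 ± 0.709 without swimming and at 3.47 ± 0.656 and 2.00 ± 0.641 after it, without overlap. Against Pdgfra alone, Gli1 TPM was 9.01 ± 1.28% in Des+/+ and 17.5 ± 9.53% in Des-/- libraries without swimming, which overlapped. After swimming it was 10.3 ± 2.39% and 21.6 ± 3.33%, which did not overlap. Across all 12 libraries, which share genotype and swimming groups, the log2 level correlated with the mean log2 level of the fibroblast markers with r between 0.39 (Sufu) and 0.91 (Smo) for 8 members and with r = -0.51 for Ptch1. Within groups, after group means were removed, r was 0.79 for Gas1, 0.69 for Gli2 and 0.69 for Gli3, and it was -0.52 for Gli1, -0.51 for Boc and -0.79 for Ptch1. These correlations describe 12 libraries and carry no test.

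With the fibroblast score (mean log2 CPM of the 14 markers) as a covariate, 0 of 9 members were called in either genotype comparison by edgeR. The same fit called 0 of all genes without swimming and 186 after it, and the score did not overlap between the genotypes. The change of Gli1 was then 2.50 (adjusted p = 0.182) without swimming and 1.97 (adjusted p = 0.0665) after it. Boc was at 1.34 and 1.29 and Ptch1 at 1.06 and 0.56, while Gli3 was at -0.06 and -0.67 and Gas1 at -0.05 and -0.86. Gli2 (0.24 and 0.11) and Cdon (0.01 and 0.52) were smaller than without the covariate. Smo was positive in all 21 alternative fits, this fit included, at no less than 0.486 without swimming and 0.425 after it. Over the same fits Sufu lay between 0.003 and 0.263 without swimming and between -0.007 and 0.182 after it.

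**Figure D4:**
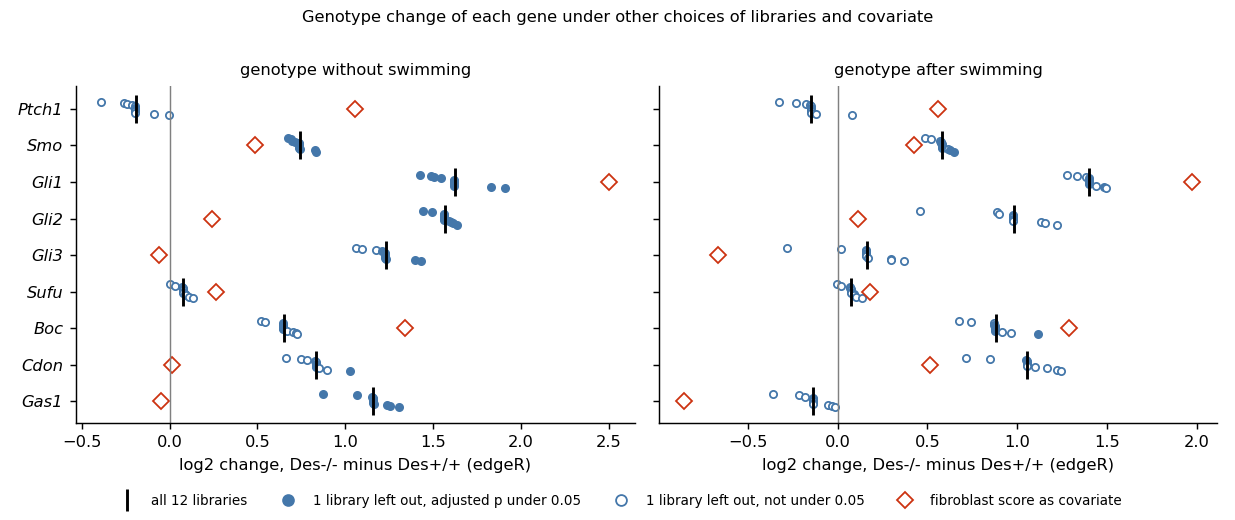
Log2 change of each gene between genotypes (x axis, Des-/- minus Des+/+) without swimming (left) and after it (right), with all 12 libraries (black bar), with 1 library left out in turn (circles, filled for an adjusted p under 0.05) and with the fibroblast score as a covariate (diamonds). Gli1 is at 1.43 to 1.91 in every left-out fit without swimming and at 2.50 with the covariate, whereas Gli3 moves from 1.23 to -0.06 and Gas1 from 1.16 to -0.05 with it.

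The Des-/- libraries numbered 3 stood apart from the others of their groups in several members and in the marker lists. They had the highest summed fibroblast markers of their groups and the lowest cardiomyocyte markers (6210 CPM without swimming and 15607 CPM after it). Their macrophage markers were at 4273 CPM against 688 and 419 CPM without swimming, and at 1379 CPM against 325 and 229 CPM after it. Their isolation response genes were at 10773 and 7900 CPM, again the highest of each group. In both Des-/- groups replicate 3 had the lowest Ptch1 and the highest Gli2, Gli3, Cdon and Gas1. Without both libraries, a comparison added after the data had been seen, 6 members were called without swimming and 3 after it, with Cdon lost each time (adjusted p = 0.0520 without swimming). Ptch1 was then at 0.06 and 0.09, and Gli1 at 1.98 and 1.34. For swimming, Cdon in Des+/+ (log2 change -0.98, adjusted p = 0.0429) and Gas1 in Des-/- cells (-1.13, adjusted p = 0.0233) passed in that fit. Leaving out Des-/- swim replicate 3 alone also let Gas1 pass (-1.44, adjusted p = 0.0459).

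Of the ligands upstream of the receptors, Shh was near 0 and Dhh was measurable. Shh, the ligand best known from development, had 0 to 5 counts per library and was not tested, and Ihh was not analysed here. Dhh, the ligand of peripheral nerve and gonad, was at 4.27 to 11.8 CPM in Des+/+ and 3.30 to 8.53 CPM in Des-/- libraries, and its changes of -0.48 and -0.43 did not pass (adjusted p = 0.366 and 0.473). On the per-length scale Dhh was at 4.29 ± 1.09 TPM in Des+/+ non-swim libraries, above the mean of each Gli gene there. Disp1, which releases ligand from the producing cell, was higher without swimming (0.77, SE 0.19, adjusted p = 0.0120), and Scube2, which carries released ligand, was lower (-1.71, SE 0.42, adjusted p = 0.0105). Of 5 tested genes of ligand release these were the 2 that passed without swimming, and 0 passed after it. The shares called over all genes were 32% and 10.6%.

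Other proteins that bind the ligand did not move in 1 direction. Hhip, a decoy receptor and a target, had 0 to 6 counts per library and was not tested. Gpc1, a glypican of the cell surface, was lower in both comparisons (-2.21 and -1.29, adjusted p = 0.00122 and 0.0327). Lrp2 was called higher in both, but it had 0 to 3 counts in the Des+/+ swim libraries.

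Most partners of Smo in the cilium and at the membrane were called higher where Smo was. Of 7 tested partners 5 were called higher and 1 lower without swimming, and 5 were called higher and 0 lower after it. Among all genes, 14% were called higher and 18% lower without swimming, and 5.01% and 5.57% after it. Evc and Evc2, a pair of ciliary proteins that bind activated Smo, changed by 0.89 and 0.75 without swimming (adjusted p = 0.00373 and 0.0139) and by 1.02 and 0.78 after it (adjusted p = 0.0125 and 0.0320). Iqce, which anchors the Evc proteins, rose by 0.82 and 1.26 (adjusted p = 0.0180 and 0.0130). Arrb2, a β-arrestin with many other partners, rose by 1.73 and 1.46 (adjusted p = 0.00895 and 0.0447). Its Des-/- libraries were spread widely, at 38.0 to 131 CPM without swimming and 42.0 to 73.3 CPM after it. The Des+/+ libraries were at 20.8 to 21.9 and 17.4 to 22.1 CPM.

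Genes that process or restrain the Gli proteins went in both directions. Of 17 tested, 3 were called higher and 5 lower without swimming, and 1 higher and 3 lower after it. The shares over all genes were 14% higher and 18% lower without swimming, and 5.01% and 5.57% after it. Kif7, the ciliary kinesin that works with Sufu on Gli proteins, rose by 0.93 and 0.97 (adjusted p = 0.00529 and 0.0175). Prkaca, the catalytic subunit of protein kinase A that marks Gli proteins for processing and is abundant in cardiomyocytes, fell by 1.35 without swimming (adjusted p = 0.00122), and its change after swimming was -0.71 (adjusted p = 0.0504). Prkar1a, a regulatory subunit of the same kinase, fell by 0.50 and 0.73 (adjusted p = 0.0221 and 0.0162), and Cul3, a ubiquitin ligase scaffold, fell by 0.71 and 0.50 (adjusted p = 0.00179 and 0.0278).

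Of 12 tested transcriptional targets, which include the members Gli1 and Ptch1, 6 were called higher without swimming and 1, Gli1, after it. Snai1, a transcription factor of mesenchymal cells, rose by 1.52 without swimming (SE 0.27, adjusted p = 0.00231) and was at 0.54 after it (adjusted p = 0.205). Bmp4, a growth factor, rose by 0.72 (adjusted p = 0.0228) and was at 0.69 after swimming (adjusted p = 0.0558). Of 35 tested genes of the cilium, 6 were called higher and 2 lower without swimming, and 8 higher and 1 lower after it. For all genes tested, 14% were called higher and 18% lower without swimming, and 5.01% and 5.57% after it. Kif3a, a motor of ciliary transport, rose by 0.70 and 1.03 (adjusted p = 0.0115 and 0.0124), whereas Ift81, a subunit of the transport particle, fell by 2.37 and 1.62 (adjusted p = 6.65e-04 and 0.00965). Over all 80 tested genes of the pathway that are no members, 21 were called higher and 10 lower without swimming with a median change of 0.26, and 15 higher and 5 lower after it with a median of 0.24. Swimming gave 0 calls among these 80 genes in either genotype by edgeR, against 0.0912% of all genes in Des+/+ and 0.0228% in Des-/- cells.

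**Figure D5:**
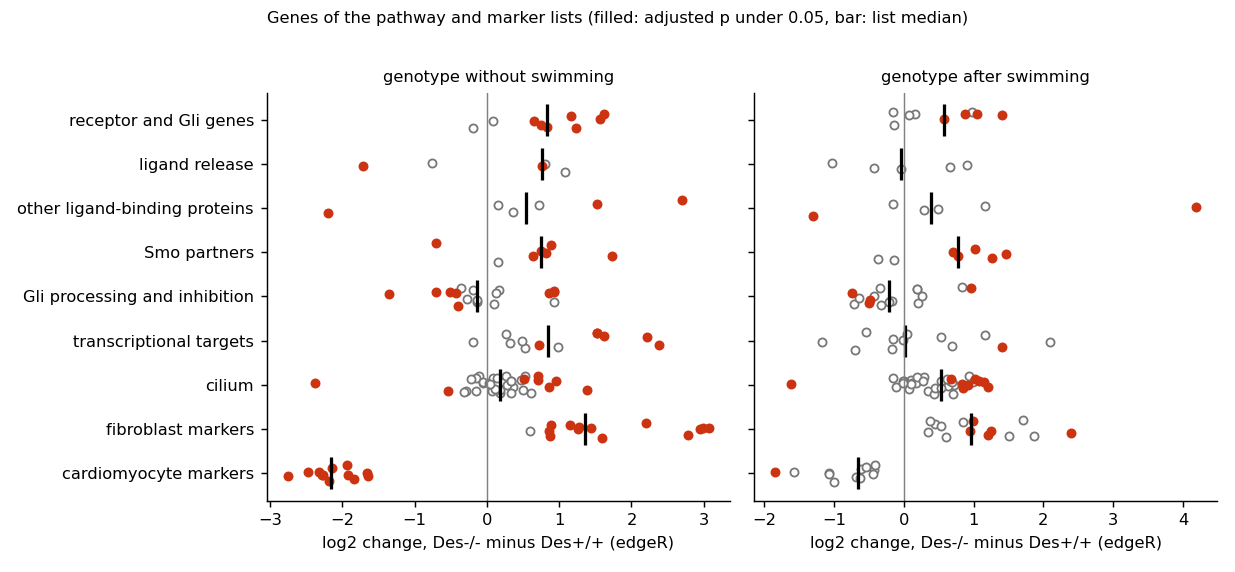
Log2 change between genotypes (x axis, Des-/- minus Des+/+) of every tested gene of the pathway and marker lists (y axis) without swimming (left) and after it (right), with filled points for an adjusted p under 0.05 and a black bar for the list median. The 9 receptor and Gli genes have medians of 0.84 and 0.58, and the cardiomyocyte markers lie below 0 for all 12 genes in both panels.

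The genes whose log2 levels ran most like those of Gli1, Gli2, Gli3 and Ptch1 over the 12 libraries were different for each of these members. For Gli1 they were Slc50a1, Phf21a and D630003M21Rik (Pearson r = 0.95, 0.95 and 0.94). For Gli2 they were Reck, Slc6a7 and Hectd2 (r = 0.97, 0.97 and 0.96), and for Gli3 they were Mcm2, Col15a1 and Siglece (r = 0.94, 0.93 and 0.93). For Ptch1 they were Irf2bp1, Wdr20 and Pnkd (r = 0.92, 0.92 and 0.91). Among the members the closest pairs were Gli3 with Gas1 (r = 0.90) and Smo with Cdon (r = 0.89), and Ptch1 with Gli2 had r = -0.57. These values describe 12 libraries that share the same groups, and they were not tested.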

How the data were processed

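Poly-A RNA of isolated cardiomyocytes from 4 groups of 3 libraries was sequenced by the authors as single-end reads. The deposited files hold raw counts per gene, which the authors made with HISAT2 2.2.1, SAMtools 1.13 and reverse-stranded HTSeq counting on GRCm38. The annotation they counted on is not given in the sources used here. The members and lists were chosen with earlier results of these data known.

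Counts were tested with edgeR 4.0.16 (R 4.3.3): filterByExpr, TMM scaling and a quasi-likelihood fit of 4 group means to 12 libraries (8 residual degrees of freedom), with Benjamini-Hochberg adjustment over 13158 of 21493 genes. The threshold for a call was an adjusted p of 0.05, and edgeR's common biological coefficient of variation came to 0.271. Log2 CPM used a prior count of 2. TPM was computed from counts per kilobase of GENCODE M21 exons. A count of 3, the limit that 0 counts allow, equals at most 0.656 CPM, for counting error only. No pair of libraries was identical (highest r = 0.990). DESeq2 1.42.0, other scalings, filters, designs and left-out libraries were tried as alternatives, and the code was tested on simulated data. Named beyond the members were the ligands, Hhip and Des, up to 3 genes with the smallest p per pathway list and genotype comparison, and the 3 genes most like Gli1, Gli2, Gli3 and Ptch1. Same-numbered Des-/- libraries deviated together (r = 0.36, 0.32 and 0.60 between the non-swim and swim groups). Differently numbered libraries were not compared and no source states a pairing, so whether the numbers pair these libraries is not known. One item of the lists is not reported here. The p-values measure the spread between pools.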

Additional observations from a re-analysis of the deposited data

How the results depend on the processing

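The number of called members was 7 without swimming, 4 after it and 0 for both swimming comparisons and the interaction, and it was the same with upper-quartile or relative log expression scaling, with no filter on low counts and with a mean CPM of at least 1. DESeq2 called 7, 5, 1, 1 and 1. When the fit held nothing but the groups being compared, 2 members were called after swimming. The study describes a filter on DESeq2 results (unadjusted p up to 0.05, log2 change of at least 0.6, mean count of at least 20). Applied here to the edgeR fit, it passed 1 member for swimming in Des+/+, 3 in Des-/- and 2 for the interaction. An unadjusted p under 0.05 alone was found for 20.5%, 16.7% and 16.3% of all genes in these contrasts. Between genotypes after swimming the filter passed Gli1, Gli2, Boc and Cdon, and Smo did not pass it. Without both Des-/- libraries numbered 3, added after the data were seen, the counts were 6, 3, 1, 1 and 0. With the fibroblast score as a covariate 0 members were called in either genotype comparison, and without swimming Gli3 (-0.061) and Gas1 (-0.047) changed sign. That fit also called 0 of all genes without swimming. The score did not overlap between the genotypes, so the fit cannot tell the score and the genotype apart well. The cause of these differences was not tested. With 1 library left out the counts ranged from 4 to 7 without swimming, from 0 to 4 after it, from 0 to 0 for swimming in Des+/+, from 0 to 1 in Des-/- and from 0 to 0 for the interaction. With the replicate block the counts were 6, 3, 0, 0 and 0, with Cdon lost in both genotype comparisons. For the block, the left-out libraries and the fit on the compared groups, the share of all genes called is not given here. Those member counts therefore stand without a background. Outside the swimming comparison in Des-/- cells, same-numbered libraries did not deviate together (r = -0.41 to 0.13), and no source states a pairing there. The lowest member counts, 18 reads upward for Gli3, limit the precision for the Gli genes.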
